A study of Caenorhabditis elegans with 4 samples.

Results

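Chromosome V of Caenorhabditis elegans carried 236 of the 1539 binding sites mapped for the protein GEI-11 in embryos. A site here is one entry of the combined peak list deposited by the authors, and the sites on V are all entries of that list placed on V. They were sparse along most of the chromosome, at 11.3 per Mb against 15.7 per Mb on chromosomes I to IV together. They made 15.3% of the sites on 20.9% of the span. Weaker peaks were also fewer on V than its length gives, but by a smaller margin.

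GEI-11 (SNPC-4) belongs to the SNAP complex of small RNA transcription, to which it contributes a DNA-binding Myb domain. That complex binds short promoter elements of small nuclear RNA (snRNA), spliced-leader RNA and piRNA genes and recruits the polymerase. Chromosome V is the longest chromosome of the worm and is known for large families of chemoreceptor genes. It also carries the tandem repeat in which genes for the SL1 spliced leader, the short RNA joined to the start of many worm messages, alternate with 5S ribosomal RNA genes.

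The series holds 2 ChIP libraries, in which DNA bound to the tagged protein was precipitated with anti-GFP antibodies, and 2 input libraries of total DNA. All 4 came from hermaphrodite embryos of strain OP179, grown at 20 °C. All carried the unc-119(ed3) mutation on chromosome III and the transgene wgIs179, introduced by bombardment. This insert holds unc-119(+) together with a gei-11 gene fused to TY1, EGFP and 3xFLAG tags, so binding was read from a tagged transgenic copy. The labels name no mock precipitation and no untagged strain, and they do not say whether the replicates were separate cultures. Each ChIP replicate has its own list of 30000 peaks. The lists give no read counts, so depth per peak is unknown, and intervals cover counting error only.

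In the gene table used here, of assembly WBcel235, V holds 4995 of 19971 nuclear protein-coding genes (25%). It holds all 12 listed genes of the SL1 class (sls-1) and 0 of the 19 listed genes of the SL2 class (sls-2). It also holds 15 of 16 rrn-4 genes, the 5S rRNA class, and 28 of 99 snRNA genes outside the spliced leaders (28.3%). In contrast, 202 of 15363 piRNA genes (1.31%) are on V, and 14714 are on IV. V had 4.72 sites per 100 protein-coding genes, against 7.88 on I to IV and 12.4 on X. Whether a given site on V lies at one of these genes was not analysed here, because the peaks are on build WS220 and no sequence or annotation of that build was used.

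Scores are the authors' own values and served here to rank the peaks of each list. On V they ran from 1.73 to 3.24, and 141 of the 236 sites (59.7%) shared the highest score, so order among those rests on the authors' peak number. In the whole combined list 856 of 1539 sites (55.6%) shared it. Nuclear peaks of the first 500 ranks also shared a single score in each replicate, 3.36 in replicate 1 and 3.13 in replicate 2. Their order rests on peak number too. Most sites on V were 400 bp wide (174), while 54 were narrower, down to 101 bp, and 8 were wider, up to 503 bp. One interval on V is entered a second time, at 11979792 to 11980294. Joining entries within 1 kb of each other left 220 separate regions.

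The site of highest rank on V lay at chr V 8500269 to 8500751. It ranked 2 in the combined list, 2 in replicate 1 and 3 in replicate 2. The second was at 8228757 to 8229219, with combined rank 8, replicate 1 rank 7 and replicate 2 rank 8. The next, at 8348808 to 8349273, ranked 14, and 13 in each replicate. These 3 sites and that at 8247778 to 8248202, of rank 29 (31 and 32 in the replicates), fell within 272 kb, which held 7 sites in all.

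The other 6 of the 10 highest-ranked sites on V were spread over the middle and right of the chromosome. They lay at 12490983 to 12491390 (rank 19), at 11979792 to 11980294 (rank 30, the repeated interval), at 14092298 to 14092715 (rank 32) and at 20455631 to 20456003 (rank 37). The last were at 15028934 to 15029316 (rank 43) and 9391970 to 9392324 (rank 46). When V was divided into 3 equal parts, 7 of the 10 lay in the middle part, 3 in the right and 0 in the left. Their lowest placing was 49 in replicate 1 and 47 in replicate 2, and no replicate midpoint lay more than 18 bp from the combined midpoint.

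Nearly every site on V had a peak in each replicate list. Replicate 2 had an overlapping peak at all 236 and replicate 1 at 234. The exceptions, picked out after their values were seen, were the sites at 8235342 to 8235741 (combined rank 973, replicate 2 rank 373) and at 16351722 to 16352121 (1365 and 547).

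At matched depth, using the top 1539 peaks of each replicate, 185 of the 236 sites on V (78.4%, 95% exact interval 72.6 to 83.5%) shared 1 bp or more with a replicate 1 peak. Over all combined sites that share was 77.6%. In replicate 2 it was 184 sites (78%, 72.1 to 83.1%), against 77.1% overall. Top peaks of both replicates overlapped 142 sites on V (60.2%, 53.6 to 66.5%), against 58.4% overall. Top peaks of neither overlapped 9 (3.81%), against 3.7% overall. All 4 shares on V were thus near the background of the whole list. The 9 sites were each 400 bp wide and had combined ranks between 1193 and 1536.

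Across the 234 sites on V with a peak in both lists, the ranks in the 2 replicates had a Spearman correlation of 0.57. For 1291 such sites on the other chromosomes it was 0.48. These points share libraries and were kept by the authors for reproducible rank, so the values are descriptions. On V, 135 of the 234 (57.7%) had ranks within a factor of 2 of each other, against 792 of the 1291 elsewhere (61.3%), so these 2 measures order V and the rest differently.

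**Figure D1:**
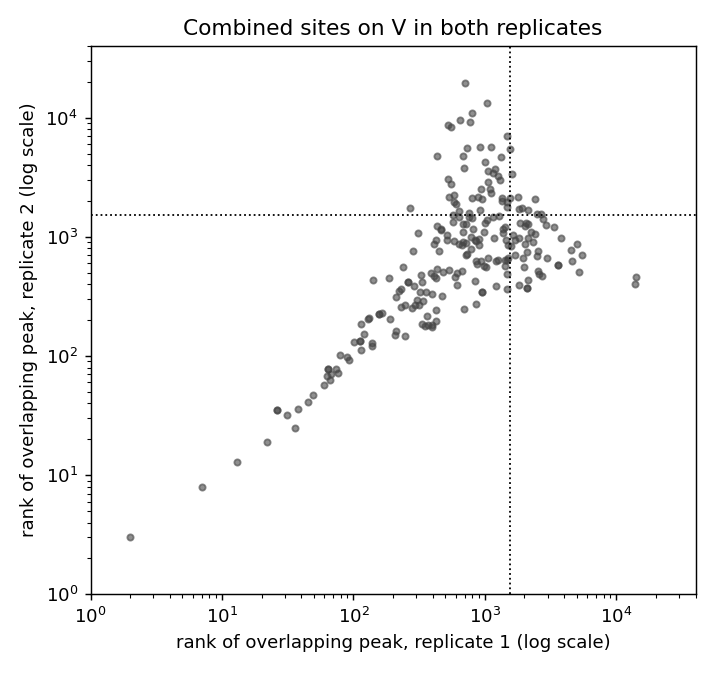
Rank of the peak that overlaps each combined site on V in replicate 1 (x axis) and replicate 2 (y axis), both on log scales, for 234 sites; dotted lines mark rank 1539. Points follow the diagonal among the best-ranked sites and spread out toward and beyond the dotted lines.

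The first question was how few sites V held, and in which lists. The combined share of 15.3% (95% exact interval 13.6 to 17.2%) lay below the span share of 20.9%, a ratio of 0.735 (two-sided exact binomial test, Benjamini-Hochberg adjusted p = 2.27e-07 over 6 chromosomes). Against I to IV alone, the density on V was 0.72 times as high (95% exact interval 0.622 to 0.831). Each replicate gave the same ratio to I to IV from its own top 1539 peaks, 0.721 in replicate 1 (231 peaks on V) and 0.72 in replicate 2 (235). The tests take each site as a separate draw, and neighbouring sites are not, so the p-values may be too small.

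In the ranges of combined rank up to 300 a low share was not detectable. Of the 100 highest-ranked combined sites 20 were on V (20%, 12.7 to 29.2%), an interval that holds the span share. V held 18.5% of ranks 101 to 300 (13.4 to 24.6%), which also holds it. The share was 13.7% of ranks 301 to 600 (9.99 to 18.1%), 16% of ranks 601 to 1000 (12.5 to 20%) and 13.7% of ranks 1001 to 1539 (10.9 to 16.9%), all with upper bounds under the span share. The ranges were not tested against one another.

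The deficit was spread over the length of V. Of its 3 equal parts the left held 73 sites, or 10.5 per Mb, the middle 83, or 11.9 per Mb, and the right 80, or 11.5 per Mb. As shares these were 30.9% (95% exact interval 25.1 to 37.3%), 35.2% (29.1 to 41.6%) and 33.9% (27.9 to 40.3%). None departed from 33.3% by the two-sided exact binomial test (adjusted p = 0.871, 0.871 and 0.89 over 3 parts; unadjusted p = 0.448, 0.581 and 0.89). All 3 parts were below the 15.7 per Mb of I to IV. Among the equal parts of I to IV, that of lowest density was the left of II, at 10.8 per Mb, and the right of II reached 25.5. The middle of X was lower than any part of V, at 8.81 per Mb, while the right of X reached 31.3. With the left, middle or right part of V left out of sites and span, V still held 11.1, 10.5 and 10.7% of sites, on 15% of the remaining span (adjusted exact binomial p = 0.000127, 4.81e-06 and 1.49e-05).

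Sites of combined rank 1 to 769 leaned toward the middle of V, within counting error. Of the 125 sites on V with combined ranks 1 to 769, 33 were in the left part, 52 in the middle (41.6%, 32.9 to 50.8%) and 40 in the right. The 111 lower-ranked sites divided as 40, 31 (27.9%, 19.8 to 37.2%) and 40. Neither set departed from equal shares by the test (adjusted exact binomial p of 0.161 or more and of 0.547). The first 500 ranks of each replicate placed 46.3% of their 82 peaks on V in the middle part in replicate 1, and 44.7% of 85 in replicate 2. Of these, 19.5 and 23.5% were in the left part. The cut at combined rank 769 falls among the 856 sites that share the highest score. Both divisions by rank thus rest on peak number among tied scores.

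In windows of 500 kb the count on V ran from 1 to 15, with a median of 6 and a mean of 5.61 over 41 full windows. The mean of the 121 full windows on I to IV was 7.83, and 34 of the 41 windows on V (82.9%) were below it, as were 61 of the 121 (50.4%) on I to IV themselves. V had 6 windows with at most 2 sites (14.6%, against 7.44% on I to IV) and 3 with 10 or more (7.32%, against 31.4%). Taken singly, II and III had 10 and 11.1% of windows with at most 2 sites, and I, IV and X had 3.33, 5.88 and 8.57%. III and X each had 1 window with 0 sites, and V had 0 such windows. Windows with 10 or more sites made 23.3 to 37% on the other chromosomes. Against I to IV together, V thus had a smaller share of windows with 10 or more sites. Its share with at most 2 was larger, and neither difference was tested. The variance of its window counts was 1.47 times their mean, between the 1.09 of chromosome I and the 1.87 to 3.3 of II, III and IV.

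The fullest window was at 14 to 14.5 Mb, with 15 sites (95% exact Poisson interval 8.4 to 24.7) and 13 top peaks in each replicate. The window at 11 to 11.5 Mb followed with 12 sites, and 14 and 13 top peaks in replicates 1 and 2. Then came the window at 2.5 to 3 Mb with 10 sites (6 and 8 top peaks), and those at 5.5 to 6 Mb and 12 to 12.5 Mb with 9 each. In the window at 5.5 to 6 Mb the replicates had 9 and 5 top peaks, and at 12 to 12.5 Mb they had 6 and 11. Sites of combined rank 1 to 769 made 12 of the 15 at 14 to 14.5 Mb and 10 of the 12 at 11 to 11.5 Mb.

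The emptiest windows were at 2 to 2.5 Mb and at 12.5 to 13 Mb, with 1 site each (0.0253 to 5.57) and 1 top peak in each replicate. The windows at 5 to 5.5, 7.5 to 8 and 17 to 17.5 Mb held 2 each, as did that at 18 to 18.5 Mb. Of these, the window at 5 to 5.5 Mb had 2 top peaks in replicate 1 and 0 in replicate 2. The nearly empty window at 12.5 to 13 Mb directly follows one of the fullest.

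**Figure D2:**
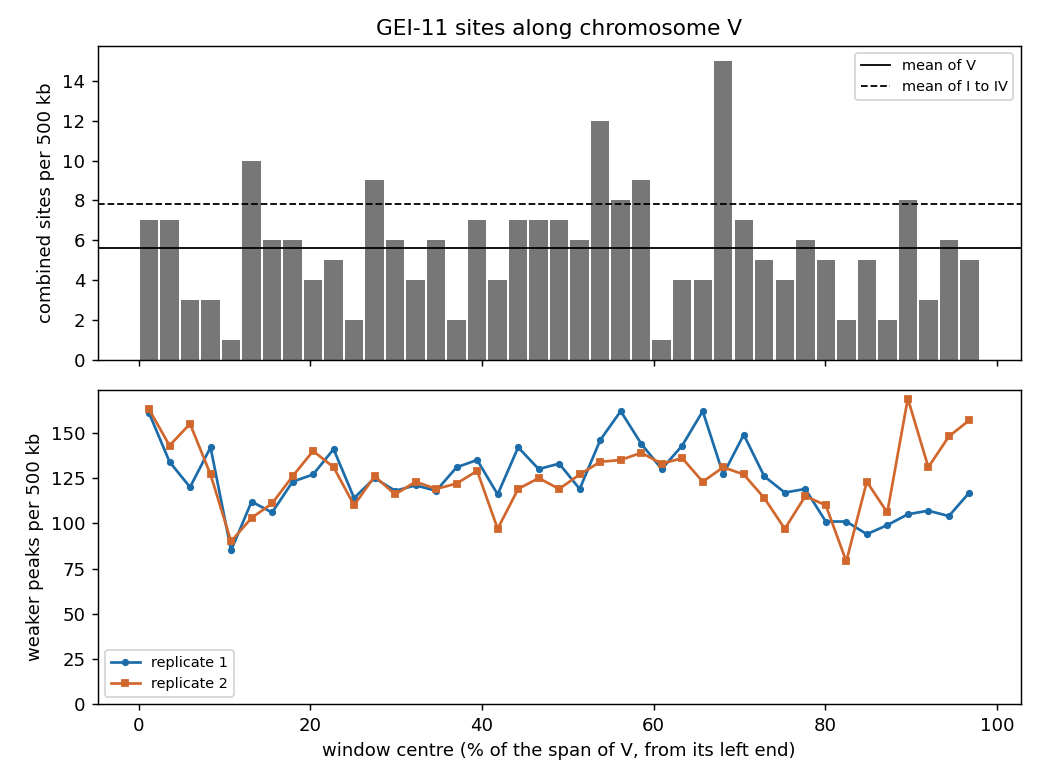
Upper panel, bars give combined sites in each full 500 kb window of V, with lines at the means of V (5.61) and of I to IV (7.83); lower panel, points give weaker peaks per window in each replicate; the x axis is the window centre in percent of the span from the left end. Site counts reach 15 in 1 window and drop to 1 in 2 windows, while weaker peaks stay between 79 and 169.

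The second question was whether weaker peaks share the low density. Weaker peaks are those ranked below 1539 in a replicate list that overlap no combined site, 27871 in replicate 1 and 27876 in replicate 2 on the 6 nuclear chromosomes. V held 5245 of them in replicate 1 (18.8%, 95% exact interval 18.4 to 19.3%) and 5271 in replicate 2 (18.9%, 18.5 to 19.4%). Both shares were below the span share, at 0.902 and 0.906 times it (exact binomial, adjusted p = 8.84e-17 and 2.14e-15 over 6 chromosomes, with peaks treated as independent). Per Mb, V had 251 weaker peaks in replicate 1 and 252 in replicate 2, against 281 and 286 on I to IV.

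The weaker peaks were thus less depleted on V than the top peaks. The share of weaker peaks on V exceeded that of the top 1539 by 3.59 percentage points in replicate 1 (95% Newcombe interval 1.64 to 5.37) and by 3.43 points in replicate 2 (1.47 to 5.22). V was the chromosome with the lowest density of weaker peaks in both replicates. In replicate 1 chromosome IV came next, at 255 per Mb, and was also below its span share (0.919 times it, adjusted exact binomial p = 8.15e-10). In replicate 2 IV was at 274 per Mb and 0.987 times its span share (adjusted exact binomial p = 0.309), so it passed the test in 1 replicate only.

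By rank, the first 500 peaks placed 16.9% on V in replicate 1 (13.7 to 20.5%) and 17.6% in replicate 2 (14.3 to 21.3%, which holds the span share). The share was lowest at ranks 501 to 1539, at 14.4% in replicate 1 and 14.5% in replicate 2. From ranks 1540 to 5000 it was 16.4 to 16.7% in both replicates. Ranks 5001 to 15000 gave 18.2 to 19% and ranks beyond 15000 gave 18.7 to 20%. In replicate 1 the interval of ranks 25001 to 30000 (19.9%, 18.8 to 21.1%) held the span share. In replicate 2 those of ranks 15001 to 20000 (19.7%, 18.6 to 20.9%) and 20001 to 25000 (20%, 18.9 to 21.1%) did, but that of ranks 25001 to 30000 did not (19.2%, 18.1 to 20.3%). In neither replicate did the share change in one direction over all ranks.

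**Figure D3:**
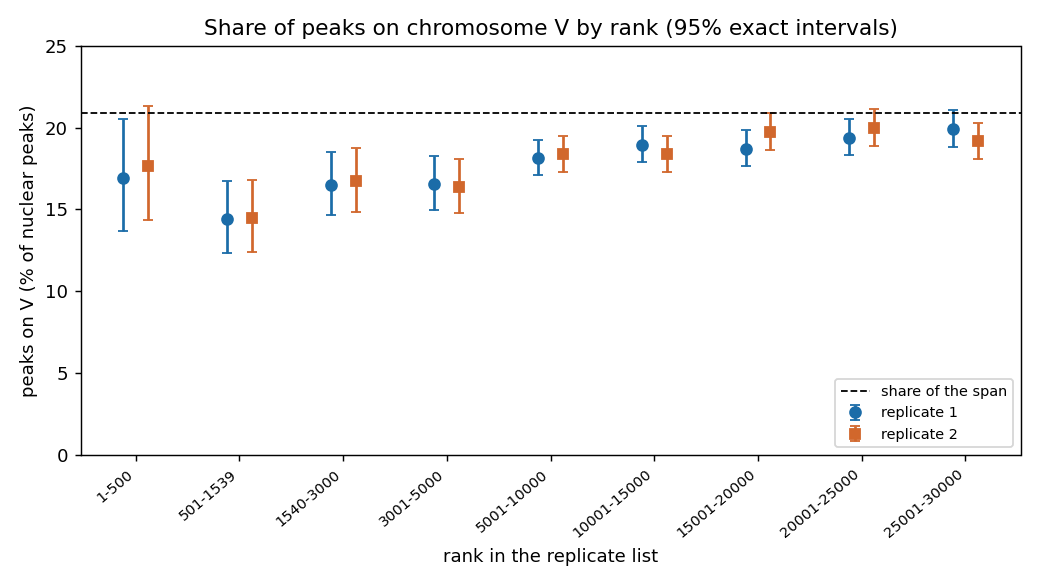
Share of nuclear peaks that lay on V (y axis, percent) by rank in the replicate list (x axis), with 95% exact binomial intervals; the dashed line is the share of the span, 20.9%. Both replicates are lowest at ranks 501 to 1539, and beyond rank 15000 they lie between 18.7 and 20%.

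The weaker peaks were also split by whether they recur in the other replicate. Of the weaker peaks on V, 31.3% in replicate 1 (1643) and 30.6% in replicate 2 (1614) were overlapped by a weaker peak of the other list. On the other chromosomes together these shares were 34.5 and 34.3%, which were not tested against those on V, and peaks lie closer together there. Among the recurring weaker peaks V held 17.4% (16.6 to 18.2%) and 17.2% (16.5 to 18%), 0.832 and 0.826 times its span share (adjusted exact binomial p = 8.4e-17 and 6.78e-18). Overlap is less frequent where both lists are less dense, so these lower shares can follow from the density of weaker peaks alone. The overlap expected from density was not computed.

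Along V the weaker peaks numbered 85 to 162 per 500 kb in replicate 1 and 79 to 169 in replicate 2. Their coefficient of variation was 14.8 and 14.9%, against 51.2% for the sites, whose smaller counts vary more by counting alone. Relative to their mean, the variance went the other way, at 2.72 and 2.78 times it for weaker peaks and 1.47 times for sites. Over the 41 windows the 2 replicates had a Pearson correlation of 0.4 (Spearman 0.46). Top peaks of replicate 1 and weaker peaks of replicate 2 gave 0.42 (0.35), and the converse pair 0.35 (0.36). The windows share build, span and neighbours, and these values are descriptions. In the 6 windows with at most 2 sites the weaker peaks averaged 110 ± 18.4 (SD over windows) in replicate 1 and 107 ± 19.9 in replicate 2. Among these 6, the window at 2 to 2.5 Mb had 85 and 90 weaker peaks. It includes part of a segment without any listed peak, from 2345982 to 2564133, described below. In the 7 windows with 8 or more sites they averaged 132 ± 20.2 and 134 ± 19.5, and the ranges overlapped in both replicates (85 to 131 and 105 to 162 in replicate 1, and 79 to 133 and 103 to 169 in replicate 2).

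The replicates did not agree on the right part of V. In replicate 1 the middle part of V held more weaker peaks than 33.3% (36.3%, adjusted exact binomial p = 2.37e-05) and the right part fewer (30.8%, p = 0.000147). In replicate 2 the left, middle and right parts held 33.3, 33.2 and 33.5% (adjusted exact binomial p = 0.988 for each). In the 4 windows from 18.5 to 20.5 Mb replicate 1 listed 105, 107, 104 and 117 weaker peaks. Replicate 2 listed 169, 131, 148 and 157 there, so it was higher in each. These windows were picked out after their values were seen.

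The third question was where V lacked sites altogether. Neighbouring sites on V lay a median of 57.8 kb apart, against 33 to 37.1 kb on I to IV. There were 10 stretches of more than 300 kb between neighbouring midpoints on V, and 5 to 7 on each of the other chromosomes. Per 10 Mb this was 4.78 on V, close to 4.58 on II and 4.35 on III. Longer single stretches than on V lay on II (500.4 kb), III (647 kb) and X (709 kb). The 5 longest ran from 8631746 to 9091473 (460 kb between midpoints), from 18031343 to 18490404 (459 kb), from 6267660 to 6709024 (442 kb), from 2185729 to 2605834 (421 kb) and from 1200374 to 1570765 (371 kb), each given from the end of a site to the start of the next.

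All 5 stretches held weaker peaks. The mean of V was 25.1 weaker peaks per 100 kb in replicate 1 and 25.2 in replicate 2. The stretch starting at 6267660 held 26.3 and 26.1 per 100 kb, close to that mean. The stretch starting at 1200374 held 23.2 and 30.2, and that starting at 18031343 held 18.3 and 20. The longest, starting at 8631746, held 23.9 in replicate 1 and 17 in replicate 2. The stretch starting at 2185729 was the poorest in both, with 10.9 and 11.7.

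Some of them also held top peaks of 1 or both replicates. The stretch starting at 1200374 had 4 of the top 1539 peaks of replicate 2, the best at rank 818, and 0 of replicate 1. The longest stretch had 2 top peaks in replicate 1, the best at rank 815, and 1 in replicate 2. The stretch starting at 6267660 had 2 in replicate 1 and 0 in replicate 2, and that starting at 18031343 had 0 and 1. That starting at 2185729 had 0 in both lists, and its best peaks ranked 2604 and 1859. The longest stretch lay elsewhere in the single lists of top peaks, at 605 kb in replicate 1 (midpoints 1200295.5 and 1805185.5) and at 749 kb in replicate 2 (4827240.5 and 5576181.5).

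**Figure D4:**
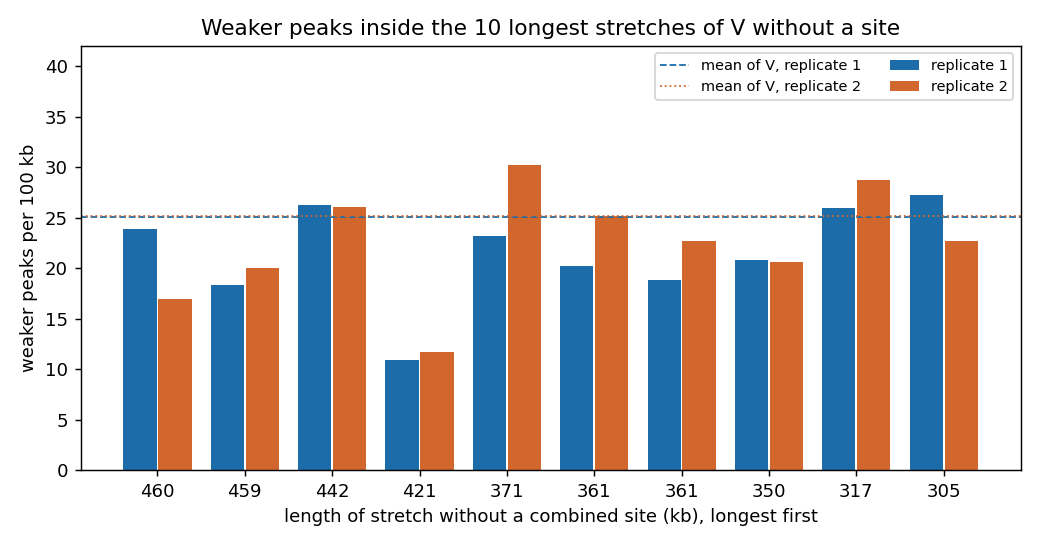
Weaker peaks per 100 kb (y axis) inside the 10 longest stretches of V without a combined site, labelled by their length in kb, in replicates 1 and 2; dashed and dotted lines at about 25 are the means of V. The stretch of 421 kb is lowest in both replicates, at 10.9 and 11.7.

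Inside 2 of these stretches lay segments with no listed peak at all. From 2345982 to 2564133 on V, 218 kb or 1.04% of its span, both replicate lists had 0 peaks, where the mean density of V gives 58 in replicate 1 and 58.3 in replicate 2. From 8803401 to 8903072, 99.7 kb or 0.476% of the span, both had 0, where the mean gives 26.5 and 26.6. Each list is complete in its peak numbers, from 1 to 30000.

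No other segment of this size was found. On the other chromosomes the longest segment free of peaks of both lists was 49.8 kb, on III, and the next was 40.3 kb, on IV. Within a single list the longest elsewhere was 56.3 kb in replicate 1, on X, and 64.3 kb in replicate 2, on II. The segments were set apart after these values were seen, and no test was made of them.

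Both lists had peaks on either side of each segment, where the mean of V is 26.6 per 100 kb in replicate 1 and 26.7 in replicate 2. The 100 kb to the left of the longer segment held 17 peaks in replicate 1 and 26 in replicate 2, and the 100 kb to its right 24 and 31. Around the shorter segment the counts were 23 and 24 on the left and 39 and 25 on the right. Outside the segment, the stretch starting at 2185729 had 22.8 and 24.3 weaker peaks per 100 kb, and that starting at 8631746 had 30.6 and 21.7. Input reads, copy number and mappability of the segments were not analysed here.

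Both segments together made 1.52% of the span of V and at its mean density would hold 2.46 and 1.12 sites. Leaving them out raised the density of V to 11.5 sites per Mb, with V holding 15.3% of sites on 20.6% of the remaining span (adjusted exact binomial p = 8.12e-07). The weaker peaks kept their low share too, 18.8 and 18.9% on that span (adjusted exact binomial p = 3.6e-13 and 6.04e-12).

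**Figure D5:**
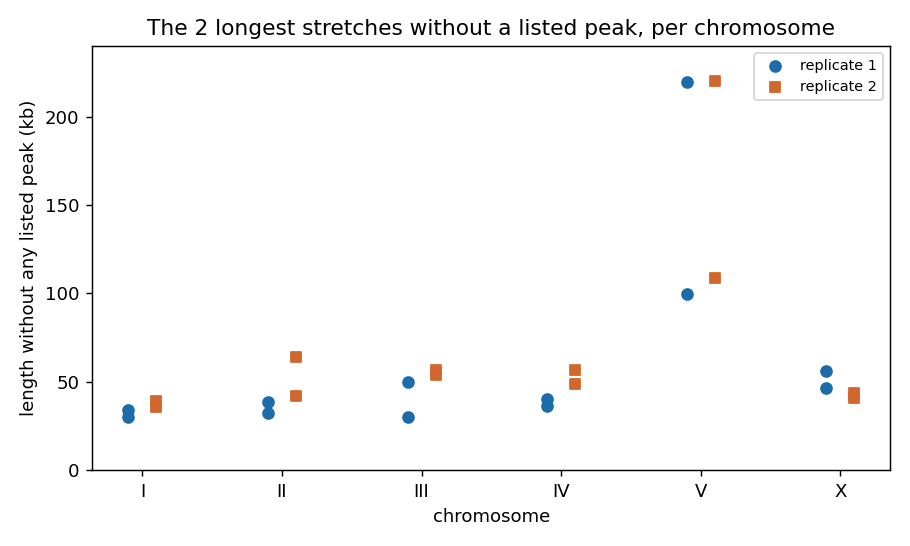
Length in kb (y axis) of the 2 longest segments without any listed peak on each chromosome (x axis), in each replicate list. Both segments on V stand above all others, at 220 and 99.7 kb in replicate 1 and at 220 and 109 kb in replicate 2.

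The fourth question was how sites on V cluster. Runs of sites whose neighbouring midpoints lay under 5 kb apart numbered 26 on V and held 63 of the 236 sites (26.7%), near the 28.7% of all combined sites. On I to IV the share was 29.8% (288 of 965). There were 19 pairs, 3 runs of 3 sites and 4 runs of 4, from 0.502 to 9.71 kb long with a median of 2.96 kb. The left part of V held 9 runs, the middle 6 and the right 11. Combined ranks 1 to 769 included clustered and single sites in similar shares, 32 of 63 (50.8%) against 93 of 173 (53.8%).

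The shortest run of 4 sites lay at 11174781 to 11177294 (2.51 kb), with ranks 214, 85, 71 and 284 from left to right. All 4 were overlapped by top peaks in both replicates, and the entries joined into 1 region when those within 1 kb were merged. The run at 26394 to 31048 lay at the left end of V and included its first site. Its members had ranks 1142, 742, 955 and 1438, of which 3 were overlapped by top peaks in each replicate.

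The run at 14092298 to 14097661 (5.36 kb) had ranks 32, 248, 622 and 134, all overlapped by top peaks in both replicates. It lay in the fullest window of V. The run at 5587029 to 5596735 was the longest, at 9.71 kb, with ranks 784, 216, 1447 and 595, of which replicate 2 supported 3 with top peaks and replicate 1 all 4. The shortest run of 3, at 11979792 to 11982614, contains the interval that is entered a second time, so it holds 2 separate regions.

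Some close neighbours lay within 1 kb of each other. Merging entries within 1 kb turned 7 of the 26 runs into single regions, and 19 kept 2 or more. Merging shows nearness only and not that a peak was split. The run at 11174781 to 11177294 merged into 1 region but had 4 top peaks in each replicate. The other runs that became single regions had 0 to 2 top peaks per replicate. Among them, those at 5602293 to 5602898 and 19643005 to 19644295 had 1 in each. In 12 runs every member was overlapped by top peaks of both replicates, but the same replicate peak can overlap neighbouring entries. In 14 of the 26 at least 1 replicate had fewer than 2 top peaks in the run. In 4 of the 26 at least 1 replicate had no top peak in the run.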

How the data were processed

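Per the file headers, the deposited peaks are on WormBase build WS220, 1-based, and the source field names SPP, a peak caller, with IDR, a filter on rank reproducibility between replicates. Each record holds a score of the authors on an unnamed scale. Not given in the sources used here are the aligner, versions, thresholds, use of input and the way replicates were combined. Per the labels' protocols, chromatin was fixed with 2% formaldehyde, and 10% of the lysate was kept as input.

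Peaks were ranked by score, then by peak number. Mitochondrial peaks (29 and 26 in replicates 1 and 2) were left out of shares. Each chromosome was taken to run from position 1 to the last base of any replicate peak (20.9 Mb for V, 100.2 Mb in all). Sites were placed by midpoint. Shares were tested with two-sided exact binomial tests with Benjamini-Hochberg adjustment, and given exact Clopper-Pearson intervals. Sites named with positions are the 10 of highest rank on V, the 5 fullest and 5 emptiest windows (a sixth window tied with the emptiest is also given), the 5 longest stretches and the 5 largest clusters. The members, lists and tests were chosen with earlier results of these data known. Tests were tried on simulated lists. Python 3.11.15, numpy 2.4.6, pandas 2.3.3, scipy 1.17.1, statsmodels 0.14.6 and matplotlib 3.10.9 were used. The gene table (WBcel235) gave gene counts per chromosome only.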

Additional observations from a re-analysis of the deposited data

How the results depend on the processing

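The shares of sites and of weaker peaks on V kept their direction and their side of the 0.05 threshold in all alternatives tried. The site share was 15.2 to 15.5% in the single replicates, 16.3% in ranks 1 to 769, 15.3% after 1 kb merging and 19.7% of autosomal sites on 25.4% of their span. The last, and those leaving out parts of V, were added after seeing the data. The share of weaker peaks was 19.7 and 19.6% in the last 10000 ranks (replicates 1 and 2). The share of V sites in its right part, 33.9%, fell below 33.3% in the single replicates (32.8 to 32.9%), in ranks 1 to 769 (32%) and after merging (32.7%), never past the threshold; the cause was not tested. The longest stretch without a site, 460 kb, was 605 to 749 kb in the single replicates and 1149 kb in ranks 1 to 769, which hold fewer sites. The 26 clusters became 16 with gaps under 2 kb, 32 with gaps under 10 kb and 19 after 1 kb merging. Under reciprocal overlap of at least 50%, the shares of sites on V with a top peak were 66.5 and 65.7%, and with the whole replicate lists 99.2 and 100%. Of 50 alternatives 38 left the result in place, as did all 9 added after seeing the data. In place does not mean unchanged. It includes the 19 and 32 clusters, and a fullest window of 12 sites instead of 15 with windows offset by 250 kb. No paired analysis was possible because no peak list of the inputs was at hand. Depth, and so the peaks it limits, is unknown.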
